A study of Mus musculus with 6 samples.

Results

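AP-1 and immediate early genes were examined in cultured brown adipocytes, a set of 10 genes chosen by name among the 22466 genes with RefSeq transcripts in the deposited table. The set comprises the Fos family (Fos, Fosb, Fosl1 and Fosl2), the Jun family (Jun, Junb and Jund), Atf3, Egr1 and Ier2. Each gene had a single RefSeq transcript (accession NM_ or NR_) in the table. RNA sequencing covered 6 primary cultures, 3 of WT (replicates 10, 11 and 12) and 3 of Ucp1-KO origin (replicates 13, 14 and 15). Precursor cells came from interscapular brown fat of male mice aged 5 to 6 weeks. WT and UCP1(-/-) animals shared the 129SvEvS1 background. Both genotypes received the same induction medium for 2 days, with dexamethasone, isobutylmethylxanthine, indomethacin, insulin, T3 and rosiglitazone, followed by 7 days in insulin, T3 and rosiglitazone. No adrenergic agonist is named for the sequenced cultures, and the cells were differentiated in the dish. The values therefore describe cells in vitro without a named stimulus. Medium was renewed every 2 days and changed to lower glucose on day 7. The time from the last change to harvest is not given. The labels describe the cultures as independent but do not say which animals each came from, and p-values measure only the spread between these cultures.

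AP-1 is a dimeric transcription factor. Jun proteins can pair with each other or with Fos proteins through their leucine zippers, whereas Fos proteins need a Jun partner to bind DNA. Fos, Fosb, Jun, Junb, Egr1, Atf3 and Ier2 are classical immediate early genes, transcribed within minutes of a growth factor, cAMP or stress signal from factors already present in the cell, and their mRNAs usually decay quickly. Fosl1 and Fosl2, which encode Fra-1 and Fra-2, follow more slowly and last longer, and Jund is expressed rather steadily in most cells. In fat cell precursors AP-1 and EGR1 accompany proliferation and the first response to the differentiation cocktail, and in brown fat Fos family genes are known to respond to adrenergic stimulation.

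Abundance was deposited as RPKM, read numbers scaled to transcript length and to all mapped reads, which allows levels of different genes to be set side by side. Among low Ensembl transcripts of known length, 93.93% to 94.16% of the values of a culture were whole multiples of what a single read is worth, and this gave between 14989604 and 17727653 reads per culture. For a transcript of 2000 bases, a floor of 3 reads equals 0.085 to 0.1 RPKM, which covers counting error only. Ucp1 itself had 981 to 1775 RPKM in the WT and 307 to 409 RPKM in the Ucp1-KO cultures, lower in each case (limma adjusted p = 0.868) but not absent. RPKM values do not show which part of the transcript the remaining reads cover. The paper attributes them to a non-functional remnant that lacks some exons, and detected no UCP1 protein in Ucp1-KO cells. All 8 adipocyte markers checked were present, with Fabp4 between 26400 and 29310 RPKM in single cultures. Stromal markers differed most within WT, with summed levels of 892 to 1986 RPKM in WT and 777 to 1195 RPKM in Ucp1-KO cultures. The summed level of macrophage markers was 848 RPKM in Ucp1-KO replicate 14 and 43.4 to 193 RPKM in the other 5 cultures.

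Start regions of 3 Jun genes and of Fos are shown here because no Jun gene overlapped between genotypes, while Fos, their classical partner, did. Fosl1, the other gene without overlap, had no window at hand. Each window runs from 250 bases before to 50 after the gene start of RefSeq on GRCm38.p6, in the direction of transcription. Motifs were searched on either strand and are marked by capitals, except the CCAAT box, which was searched but left in lower case. The first is TGACGTCA, the full cAMP response element. Its core TGACG was searched as well, and a core inside the full element would be counted under both. The AP-1 site was searched as TGANTCA. A variant site was searched as TGACATCA, the form that Jun and ATF proteins can bind. The TATA box was searched as TATAAA. The EGR site was searched as GCGNGGGCG and the serum response element as the CArG box.
Jun, chr4:95052173-95052472, reverse strand: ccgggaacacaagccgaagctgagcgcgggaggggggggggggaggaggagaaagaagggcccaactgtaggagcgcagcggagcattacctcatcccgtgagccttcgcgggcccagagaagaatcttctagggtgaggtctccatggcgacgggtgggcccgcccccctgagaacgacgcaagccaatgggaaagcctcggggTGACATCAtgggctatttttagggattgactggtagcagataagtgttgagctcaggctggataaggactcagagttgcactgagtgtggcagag
Junb, chr8:84978699-84978998, reverse strand: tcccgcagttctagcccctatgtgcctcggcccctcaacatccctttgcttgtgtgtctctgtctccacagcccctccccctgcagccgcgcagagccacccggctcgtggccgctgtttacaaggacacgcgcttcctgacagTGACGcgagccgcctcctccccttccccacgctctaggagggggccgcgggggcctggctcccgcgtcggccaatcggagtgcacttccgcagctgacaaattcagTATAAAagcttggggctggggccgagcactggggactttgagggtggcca
Jund, chr8:70697489-70697788, forward strand: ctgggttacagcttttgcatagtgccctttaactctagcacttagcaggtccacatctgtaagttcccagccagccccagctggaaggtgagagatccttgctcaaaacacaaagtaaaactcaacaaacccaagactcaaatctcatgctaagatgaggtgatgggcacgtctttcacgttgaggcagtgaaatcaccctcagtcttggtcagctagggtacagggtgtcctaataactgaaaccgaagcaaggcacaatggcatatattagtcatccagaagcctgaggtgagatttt
Fos, chr12:85473640-85473939, forward strand: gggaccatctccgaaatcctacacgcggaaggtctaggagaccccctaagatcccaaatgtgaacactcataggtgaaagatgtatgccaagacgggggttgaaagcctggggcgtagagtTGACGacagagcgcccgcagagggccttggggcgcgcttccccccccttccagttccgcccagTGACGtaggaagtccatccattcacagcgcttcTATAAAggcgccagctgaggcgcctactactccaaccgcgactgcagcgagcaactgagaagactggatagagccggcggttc
Windows were at hand for 7 of the 10 genes. TGACG, the core of the cAMP response element, lay 129 and 66 bases upstream of the Fos start, 106 bases upstream of that of Junb, 60 bases upstream of that of Fosb and 7 bases upstream of that of Atf3. These were 4 of 7 windows, against 20.8% of all 32851 windows. The related TGACATCA occurred in Jun alone, 45 bases upstream, and in 3.62% of all windows. TATAAA was found in Fos, 33 bases upstream, and at the annotated start of Junb, against 13.6% of all windows. CCAAT was found in Jun, 65 bases upstream, in Junb, 36 bases upstream, and in Atf3 after the start, 3 of 7 windows against 37.4% of all. GCGNGGGCG was found in Fosb and Fosl2, and in 5.55% of all windows. None of the 7 windows held TGACGTCA, TGANTCA or the CArG box, which were present in 1.79%, 7.81% and 1.63% of all windows. Sites more than 250 bases upstream of a start were not searched, and Egr1 had no window. The Jund window held none of the motifs searched and 3 CG dinucleotides against 15 to 32 in the other 6. The whole Jund window, not only its beginning, lies upstream of the Jund start in GENCODE M21 (70698949), which lies inside the RefSeq gene. The lack of motifs therefore applies to the RefSeq start only.

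**Figure D1:**
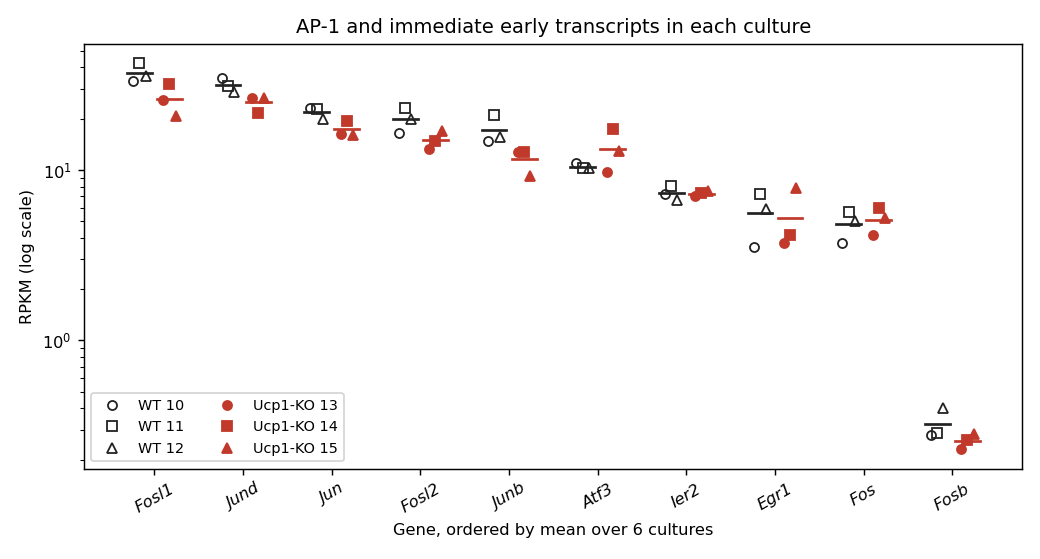
RPKM of the 10 genes on a log axis, with 3 WT cultures (open symbols) and 3 Ucp1-KO cultures (filled symbols) per gene and a line at each group mean. Fosl1 and Jund are the most abundant, with means of 31.6 and 28.2 RPKM, and Fosb is the least abundant with 0.29 RPKM.

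Averaged over all 6 cultures, Fosl1 was the most abundant of the 10 transcripts with 31.6 RPKM, followed by Jund with 28.2, Jun with 19.6, Fosl2 with 17.4, Junb with 14.4 and Atf3 with 11.9 RPKM. Ier2 had 7.30, Egr1 5.40, Fos 4.96 and Fosb 0.29 RPKM. Neighbours in this order mostly overlapped between cultures. The exceptions were Atf3 and Ier2, with a lowest Atf3 value of 9.71 and a highest Ier2 value of 8.11 RPKM, and Fos and Fosb, which differed 17.1-fold. Jund exceeded Jun and Fosl2 exceeded Junb in all 6 cultures although their ranges overlapped. Among all genes with a RefSeq transcript, Fosl1 held rank 1825 by mean abundance, Fos 7539 and Fosb 12935. The level of Jund depends on the gene model, since its RPKM rested on the 2878 bases of the RefSeq transcript, against 1668 bases in GENCODE M21.

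Genotypes were compared with limma on log2(RPKM + 1). The fit held the 16865 RefSeq transcripts whose average was 0.5 RPKM or more, with Benjamini-Hochberg adjustment over all of them. A log2 fold change below 0 means lower abundance in Ucp1-KO cells. Of the 10 genes 9 passed this minimum, and Fosb did not. No transcript had an adjusted p under 0.05 (0 of 16865, or 0.0%, by limma and also 0 by limma-voom on recovered reads), so that none of the 9 genes passed the test. Before adjustment, 935 transcripts (5.54%) had a p under 0.05, and of these 547 (3.24%) were lower and 388 (2.30%) higher in Ucp1-KO cells.

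With this in view, 5 of the 9 genes had an unadjusted p under 0.05 and all 5 were lower in Ucp1-KO cells, namely Fosl1, Fosl2, Jun, Junb and Jund. In Fosl1, Jun, Junb and Jund every Ucp1-KO culture lay below every WT culture, 4 of 9 genes against 5.15% of all transcripts tested, and 0 of 9 lay entirely above, against 6.04%. The median log2 fold change was -0.33 over the 9 genes and -0.0016 over all transcripts tested. It was -0.21 over all 10 genes in the fit without a minimum abundance, which takes in Fosb. The 4 other genes, Fos, Egr1, Atf3 and Ier2, overlapped between genotypes. The count of 5 depended on single cultures, and so did the share of all transcripts with an unadjusted p under 0.05. Without WT replicate 10 the count was 3 and the share 10.4%, without WT replicate 11 they were 0 and 1.88%, and without WT replicate 12 they were 4 and 2.61%. Without Ucp1-KO replicate 13 the count was 4, with Atf3 among them and higher in Ucp1-KO cells, and the share 9.14%. Without Ucp1-KO replicate 14 they were 3 and 3.57%, and without Ucp1-KO replicate 15 they were 2 and 5.16%.

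**Figure D2:**
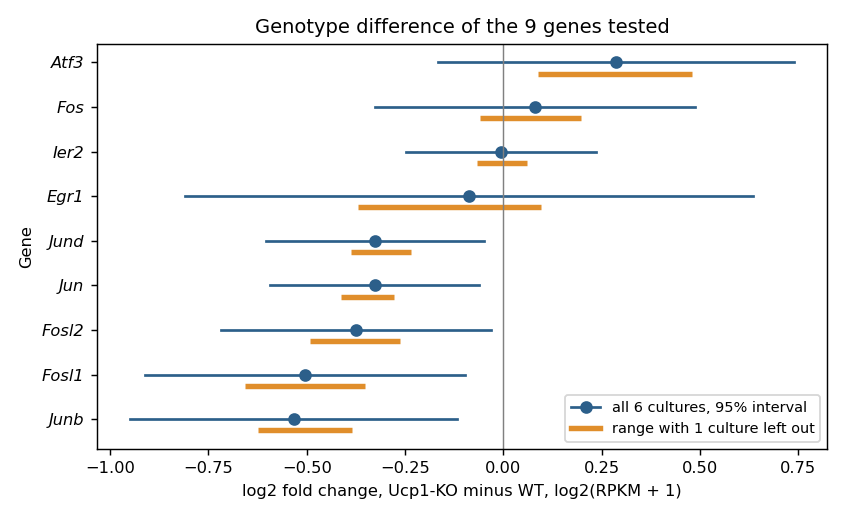
Log2 fold change of the 9 genes tested, Ucp1-KO minus WT on the log2(RPKM + 1) scale, with the 95% interval from limma (blue, 3 against 3 cultures) and the range of estimates with a single culture left out (orange). Intervals of Junb, Fosl1, Fosl2, Jun and Jund lie below 0 before adjustment, those of Egr1, Ier2, Fos and Atf3 include 0.

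In the Jun family, Jun encodes c-Jun, the partner of most AP-1 dimers (chromosome 4, 95049034 to 95052222, reverse strand). Its abundance was 23.1, 22.9 and 19.8 RPKM in WT replicates 10, 11 and 12 and 16.3, 19.5 and 16.0 RPKM in Ucp1-KO replicates 13, 14 and 15. The highest Ucp1-KO and the lowest WT culture were nearly equal, with 1072 and 1119 reads. The WT mean of 21.9 ± 1.83 RPKM compared with 17.3 ± 1.93 RPKM in Ucp1-KO cells (SD, n = 3 each), or 78.9%. This amounts to -0.33 on the log2 scale (standard error 0.11, limma unadjusted p = 0.0230, adjusted p = 0.868).

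Junb encodes a Jun protein that often restrains c-Jun (chromosome 8, 84974484 to 84978718, reverse strand). Values were 14.8, 21.1 and 15.6 RPKM in WT and 12.7, 12.7 and 9.21 RPKM in Ucp1-KO cultures. WT replicate 11 and Ucp1-KO replicate 15 stood at the ends of this range, 2.29-fold apart. Group means were 17.2 ± 3.39 and 11.5 ± 2.02 RPKM (SD, n = 3 each), which gave the lowest fold change of the 9 genes, -0.53 on the log2 scale (standard error 0.17, limma unadjusted p = 0.0193, adjusted p = 0.868). Without WT replicate 11 it was -0.39 and its unadjusted p 0.059 by limma.

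Jund, whose product often keeps cells quiescent, lies on the forward strand of chromosome 8 (70698949 to 70700616). It had 34.6, 31.0 and 28.8 RPKM in WT and 26.5, 21.7 and 26.5 RPKM in Ucp1-KO cultures, with the lowest value in Ucp1-KO replicate 14. Means were 31.5 ± 2.93 and 24.9 ± 2.78 RPKM (SD, n = 3 each), a log2 fold change of -0.33 (standard error 0.12, limma unadjusted p = 0.0271, adjusted p = 0.868). When RPKM was rescaled by median-of-ratios factors, its unadjusted p in limma was 0.0599.

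In the Fos family, Fosl1 encodes Fra-1, which lacks the transactivation domain of c-Fos (chromosome 19, 5447547 to 5455946, forward strand). It reached 33.4, 42.3 and 35.6 RPKM in WT and 25.7, 32.1 and 20.6 RPKM in Ucp1-KO cultures. The single Ucp1-KO culture close to WT was replicate 14. Means were 37.1 ± 4.64 and 26.1 ± 5.73 RPKM (SD, n = 3 each), or 70.5% of WT, with a log2 fold change of -0.50 (standard error 0.17, limma unadjusted p = 0.0223, adjusted p = 0.868).

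Fosl2, the gene of Fra-2 (chromosome 5, 32135801 to 32157842, forward strand), had 16.6, 23.1 and 19.8 RPKM in WT and 13.3, 14.8 and 16.9 RPKM in Ucp1-KO cultures. Ucp1-KO replicate 15 lay just above WT replicate 10, so that the genotypes overlapped. The means of 19.8 ± 3.28 and 15 ± 1.80 RPKM (SD, n = 3 each) gave a log2 fold change of -0.38 (standard error 0.15, limma unadjusted p = 0.0367, adjusted p = 0.868).

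Fos, the gene of c-Fos and the prototype immediate early gene (chromosome 12, 85473890 to 85477273, forward strand), was detected at 3.72, 5.67 and 5.01 RPKM in WT and 4.17, 5.96 and 5.23 RPKM in Ucp1-KO cultures. These values rested on 133 to 215 reads. The lowest and the highest culture were WT replicate 10 and Ucp1-KO replicate 14, and each genotype spanned most of the range. Means of 4.80 ± 0.99 and 5.12 ± 0.90 RPKM (SD, n = 3 each) gave a log2 fold change of 0.08 (95% interval -0.33 to 0.49, limma adjusted p = 0.953).

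Fosb, which is known to be strongly inducible and often nearly silent at rest (chromosome 7, 19302696 to 19310051, reverse strand), was the least abundant of the 10 genes. It was listed at 0.279, 0.286 and 0.403 RPKM in WT and 0.230, 0.261 and 0.283 RPKM in Ucp1-KO cultures, from 18, 18, 27, 14, 17 and 16 reads. The exact Poisson interval of the lowest count, 14 reads, ran from 7.65 to 23.5 reads and that of the highest, 27 reads, from 17.8 to 39.3 reads, so that the cultures could not be told apart at this depth. In a fit without the minimum abundance its limma adjusted p was 0.901.

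Egr1 encodes a zinc finger factor that is induced through the same kinases as Fos. It varied most between cultures of the same genotype, with 3.53, 7.22 and 5.93 RPKM in WT and 3.73, 4.14 and 7.84 RPKM in Ucp1-KO cells. High and low cultures occurred in both genotypes, 2.22-fold apart at the ends. Its SD over the 6 cultures, 0.42 on the log2(RPKM + 1) scale, was larger than that of 91.3% of the transcripts tested. The log2 fold change of -0.09 had a 95% interval of -0.81 to 0.63 (limma adjusted p = 0.972).

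Atf3 encodes a stress-inducible factor of the ATF family that can pair with Jun proteins (chromosome 1, 191170296 to 191218039, reverse strand). WT cultures were nearly identical with 10.9, 10.2 and 10.3 RPKM. Ucp1-KO cultures spread from 9.71 RPKM in replicate 13 over 12.9 RPKM in replicate 15 to 17.4 RPKM in replicate 14. Replicate 14 was also the culture with the highest macrophage markers, in which Lyz2 had 657 RPKM and Cd68 81.4 RPKM, and the part of these cells in the Atf3 value was not tested. The log2 fold change was 0.29 (95% interval -0.17 to 0.74, limma adjusted p = 0.876). It was 0.09 without Ucp1-KO replicate 14 and 0.48 without Ucp1-KO replicate 13, where the limma unadjusted p was 0.015 and no transcript passed the adjusted test.

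Ier2, a small nuclear protein gene of the early response (chromosome 8, 84661331 to 84662852, reverse strand), was the steadiest of the genes tested. It had 7.24, 8.11 and 6.63 RPKM in WT and 7.0, 7.32 and 7.50 RPKM in Ucp1-KO cultures. Its range was 1.22-fold, counting error alone was 7.36% for 171 to 206 reads, and every Ucp1-KO value lay within the WT range. The log2 fold change was -0.006 (95% interval -0.25 to 0.24, limma adjusted p = 0.995).

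**Figure D3:**
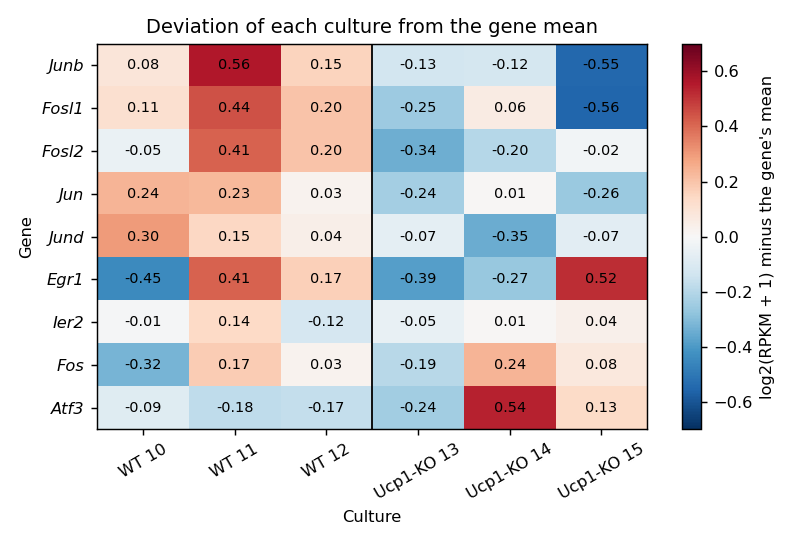
Deviation of each culture from the mean of the gene over 6 cultures, on the log2(RPKM + 1) scale, for the 9 genes tested, ordered by genotype difference and with WT left of the black line. WT replicate 11 lies above the gene mean for 8 of 9 genes and Ucp1-KO replicate 13 for 0 of 9. Egr1 and Atf3 reach their highest values in different Ucp1-KO cultures.

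Cultures differed in how many of the 9 genes exceeded their own mean over all 6. This was the case for 8 genes in WT replicate 11, 7 in WT replicate 12 and 4 in WT replicate 10. In the Ucp1-KO cultures it held for 0, 5 and 4 genes in replicates 13, 14 and 15. WT replicate 11 had the highest value for Fosl1, Fosl2, Junb and Ier2, and for 26.8% of all transcripts tested. This culture also had the highest summed stromal markers, 1986 RPKM against 777 to 1196 RPKM in the other 5 cultures, and the highest endothelial markers, 35.4 RPKM against 3.35 to 16.7 RPKM, and their part in the values of WT replicate 11 was not tested. Ucp1-KO replicate 15 had the lowest value for Fosl1, Jun and Junb, and for 26.5% of all transcripts. The median SD between cultures was 0.27 over the 9 genes and 0.17 over all transcripts tested, on the log2(RPKM + 1) scale. Within this set it ran from 0.09 for Ier2, larger than that of 10.9% of the transcripts, to 0.42 for Egr1.

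Summed by family, the 4 Fos genes amounted to 53.9, 71.4 and 60.8 RPKM in WT and 43.4, 53.1 and 43.0 RPKM in Ucp1-KO cultures. All Ucp1-KO cultures lay below all WT cultures, though replicate 14 was within 1 RPKM of WT replicate 10. Means were 62.0 ± 8.78 and 46.5 ± 5.68 RPKM (SD, n = 3 each). By exact permutation, two-sided, p was 0.1, which is the minimum for 3 against 3 cultures. The 3 Jun genes amounted to 72.5, 75.0 and 64.2 RPKM in WT and 55.6, 54.0 and 51.7 RPKM in Ucp1-KO cultures. Here the groups were clearly apart, with means of 70.6 ± 5.62 and 53.7 ± 1.92 RPKM (SD, n = 3 each, exact two-sided permutation test, p = 0.1). The ratio of Fos to Jun family RPKM was 0.88 ± 0.12 in WT and 0.87 ± 0.11 in Ucp1-KO cells (SD, n = 3 each, exact permutation test, p = 1.0), and the cultures overlapped. The level of this ratio, of the Jun sums and of the Jun shares depends on the Jund gene model named above.

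**Figure D4:**
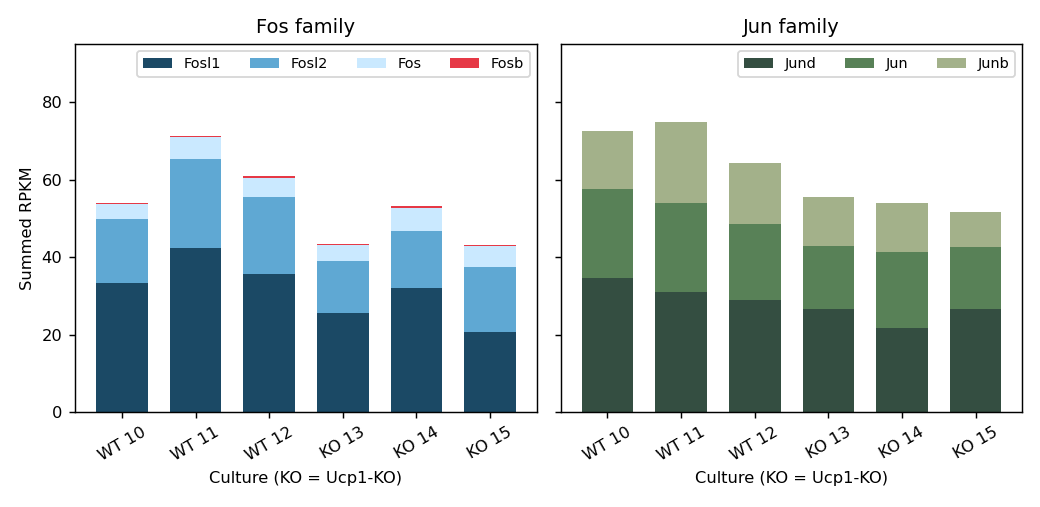
Summed RPKM of the Fos family (left) and the Jun family (right) in each of the 6 cultures, stacked by gene. Jun family sums lie between 64.2 and 75.0 RPKM in WT and between 51.7 and 55.6 RPKM in Ucp1-KO cultures, and Fosl1 and Jund make up the largest shares.

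Within the Fos family Fosl1 supplied 47.9% to 61.9% and Fosl2 27.8% to 39.3% of the RPKM of a culture. Fos itself supplied 6.90%, 7.94% and 8.24% in WT and 9.61%, 11.2% and 12.1% in Ucp1-KO cultures, so that no Ucp1-KO share overlapped the WT shares (exact permutation test, two-sided, p = 0.1). Fos RPKM itself overlapped between the genotypes, while the family sum it is divided by was lower in Ucp1-KO cells. In the Jun family the shares of Jund (40.2% to 51.2%), Jun (29.4% to 36.2%) and Junb (17.8% to 28.1%) overlapped between genotypes.

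Jun, Junb, Jund and Ier2 consist of a single exon in GENCODE M21, 4 of the 10 genes against 1.71% of the transcripts tested that could be matched to a gene model. For Jun, Junb, Jund and Ier2 the transcript length computed from the RPKM values (3187, 1840, 2878 and 1522 bases) equalled the span of the RefSeq gene. The 260 other single-exon transcripts tested had a median log2 fold change of -0.04, and 9.23% of them had every Ucp1-KO value below every WT value. Over all 15440 matched transcripts the median was -0.005 and this share 5.38%. The AU-rich motif ATTTA, known from short-lived mRNAs, occurred 8 times in the 3′ untranslated region of Fosl2, 4 times in those of Fos and Jun, 3 times in that of Atf3, 2 times in those of Junb and Egr1, once in those of Fosb, Fosl1 and Jund and not in that of Ier2. The median over 15440 transcripts was 1 occurrence. The longer form TTATTTATT was found in Fos and Fosl2, and in 6.96% of all transcripts. The library kit used does not mark strand, and reads of an overlapping gene on the other strand cannot be told apart. This concerns Jun, which overlaps the antisense gene Junos, Jund with Gm11175 and Fosl1 with Ccdc85b.

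Other immediate early genes were taken from a list of 37, of which 35 were abundant enough to be tested. In this list 6 genes had an unadjusted p under 0.05, 5 lower and 1 higher in Ucp1-KO cells, and 0 an adjusted p under 0.05. Over all 12259 genes tested with their most abundant transcript, 404 were lower and 288 higher at that threshold. Fold changes were below 0 for 29 of the 35 genes, with a median of -0.16, against 6208 of 12259 genes. Errfi1, a feedback inhibitor of the EGF receptor, had 27.6, 28.5 and 25.3 RPKM in WT and 16.5, 18.2 and 19.7 RPKM in Ucp1-KO cultures. The cultures were far apart between genotypes, with a log2 fold change of -0.56 (standard error 0.10, limma unadjusted p = 8.94e-04, adjusted p = 0.868). Ier3, an early gene that modulates survival and ERK signaling, had 20.0, 25.6 and 20.9 RPKM in WT and 14.9, 15.1 and 14.9 RPKM in Ucp1-KO cultures (limma adjusted p = 0.868). Ier5l showed 6.01, 8.55 and 5.93 against 3.47, 3.74 and 3.15 RPKM (limma adjusted p = 0.868). The remaining ones were Dusp5 and Socs3, lower in Ucp1-KO cells, and Arc, higher, which are named here after their values were seen. The most abundant genes of the list were Rhob and Cyr61, with WT means of 60.2 and 49.6 RPKM and Ucp1-KO means of 48.2 and 36.8 RPKM.

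Of 24 other genes with a basic leucine zipper, 20 were tested. A single one, Cebpd, had an unadjusted p under 0.05, against 5.54% of all transcripts tested. Cebpd encodes C/EBPδ, an early factor of adipogenesis, and had 5.86, 10.6 and 8.31 RPKM in WT and 4.19, 5.57 and 4.96 RPKM in Ucp1-KO cultures (log2 fold change -0.62, standard error 0.20, limma adjusted p = 0.868). Cebpa, the later C/EBP factor, had every Ucp1-KO value above every WT value, 1 of 20 genes against 6.04% of all transcripts tested. Its means were 161 RPKM in Ucp1-KO and 141 RPKM in WT cells (limma adjusted p = 0.871). Among 32 upstream kinases and factors tested, the median log2 fold change was -0.01. At an unadjusted p under 0.05, 1 gene was higher and 1 lower, against 2.3% and 3.24% of all transcripts tested. The lower one was Egfr, the EGF receptor gene, with 12.03, 14.1 and 11.3 RPKM in WT and 9.39, 9.66 and 10.5 RPKM in Ucp1-KO cultures (limma adjusted p = 0.868). The higher one was Rps6ka1, which encodes the kinase RSK1, with means of 4.55 and 6.09 RPKM (limma adjusted p = 0.868).

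Among 26 genes listed as targets of AP-1 or EGR1, 2 were lower and 1 higher at an unadjusted p under 0.05. Over all transcripts tested, 3.24% were lower and 2.3% higher at that threshold. The median log2 fold change of the list was -0.33, and 21 of 26 were below 0, against 6208 of 12259 genes. The list spread widely between cultures, with a median SD of 0.56. Mt1 and Mt2, the metallothionein genes, made up much of its abundance, and Mt1 had 678, 1457 and 1083 RPKM in WT and 503, 623 and 703 RPKM in Ucp1-KO cultures. The matrix metalloproteinase genes pointed in opposite directions. Mmp3 had 2.99, 6.22 and 2.29 RPKM in WT and 1.99, 1.71 and 1.07 RPKM in Ucp1-KO cultures, whereas Mmp13 had 0.88, 1.70 and 1.58 RPKM in WT and 1.71, 7.63 and 5.69 RPKM in Ucp1-KO cultures (limma adjusted p = 0.868 each).

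Stromal and preadipocyte markers had fold changes of the same sign as the 5 lower AP-1 genes. Of 12 markers 11 were tested, all 11 had a fold change below 0 and the median was -0.52 on the log2 scale. An unadjusted p under 0.05 was found for 2 of them, against 5.54% of all transcripts tested, and 0 passed the adjusted test in limma. Dcn, which encodes decorin, had 72.3 against 39.2 RPKM and Lum 5.85 against 1.67 RPKM in WT and Ucp1-KO cells (means, n = 3 each, limma adjusted p = 0.868 each). Pdgfra, a receptor gene of fat cell precursors, had means of 20.7 and 16.4 RPKM. In Dcn, Lum and Pdgfra every Ucp1-KO value lay below every WT value, 3 of 11 markers against 5.15% of all transcripts tested, and 0 of 11 lay entirely above. None of the 12 markers was at 0, and the list's summed levels overlapped as given above. All 8 adipocyte markers had a fold change above 0, with a median of 0.15 and none at an unadjusted p under 0.05. In bulk RNA a smaller number of cells of a type and less RNA per cell cannot be told apart. The part of stromal cells in the AP-1 values was not tested.

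As a description of likeness, genes were ranked by the root mean square distance of their centred log2(RPKM + 1) values to those of Fos over the 6 cultures, among 7511 genes with a mean of at least 5 RPKM. The nearest were Mrpl1, with a distance of 0.02, Hebp1 with 0.04, and Fam86, Mpst and Snx2 with 0.05 each, where Fos itself deviated by 0.20. Nearest to the average profile of the 9 genes were Tut1, Naaa, Sdf4, Gnb2 and Oxct1, with distances between 0.031 and 0.035 and a deviation of the average profile itself of 0.14. With so many genes and 6 cultures, close matches occur for many profiles.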

How the data were processed

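Total RNA of 3 WT and 3 Ucp1-KO cultures was sequenced by the authors as single reads of 50 bases (TruSeq RNA kit v2) and mapped to the mouse genome (build 38). From reads with a single match, the authors computed an RPKM value for each annotated transcript with Genomatix software, which scales for transcript length and library size, and deposited these values. The authors compared genotypes with DESeq2 1.4.5 and listed genes that differed, with Ucp1 among them and none of the 10 genes described here. The limma fit on RPKM did not call Ucp1 (limma adjusted p = 0.868), so a gene it does not call may still differ.

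The table holds 168326 rows, of which the 28890 RefSeq transcripts were used. Columns were matched to cultures by name. Transcripts averaging 0.5 RPKM or more were fitted with limma 3.58.1 (R 4.3.3) on log2(RPKM + 1), with an intensity trend, without covariates, and adjusted by Benjamini-Hochberg with a threshold of 0.05. Library totals came from the RPKM steps of Ensembl transcripts with known length, of which 93.93% to 94.16% per culture came within 0.02 reads, plus rounding, of a whole number. RefSeq lengths were not known but chosen so that all 6 values came within 0.01 reads, plus rounding, of whole numbers. Such a length was found for all 16865 transcripts tested, which is therefore no independent check. Scripts were tested on simulated data. Sums and shares were compared by exact permutation tests in scipy 1.17.1. Coordinates are GENCODE M21 on GRCm38, start regions RefSeq.

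The 10 genes and the gene lists were chosen with earlier results of these data known. Named from each list were the 2 most abundant genes and up to 3 with the smallest limma p, of which those that carry the description are given, and the nearest profiles. No culture was left out. Alternatives were 0.1 RPKM added, no minimum, 1 transcript per gene, median-of-ratios scaling, no intensity trend, limma-voom on recovered reads, all annotations, all RefSeq rows summed, an adjusted p under 0.1 and leaving out each culture.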

Additional observations from a re-analysis of the deposited data

How the results depend on the processing

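No transcript passed an adjusted p of 0.05 under any alternative run, or 0.1 in the fit as reported. Fosl1, Fosl2, Jun, Junb and Jund kept log2 fold changes below 0 in every fit, between -0.66 and -0.23 with a culture left out. Their count at an unadjusted p under 0.05 stayed at 4 or 5 under the other settings, but with a culture left out the count over the 9 genes lay between 0 and 4, while the share of all transcripts at that threshold ran from 1.88% to 10.4%. Ier2 changed direction to 0.004 after median-of-ratios scaling and to 0.019 with limma-voom on recovered reads. With single cultures left out the log2 fold change ran from -0.06 to 0.20 for Fos, from -0.37 to 0.10 for Egr1 and from -0.067 to 0.06 for Ier2, so that their directions are not settled, and from 0.09 to 0.48 for Atf3. The difference in the Fos to Jun ratio, Ucp1-KO minus WT, ran from -0.084 to 0.027, while differences in family sums lay between -19.59 and -10.9 RPKM for the Fos and between -19.98 and -14.6 RPKM for the Jun genes. Non-overlapping genes numbered 4 or 5 with a culture left out, but the share over all transcripts then rose to between 14.4% and 32.8%. Counting error exceeded the spread between cultures for Fosb in both genotypes, for Atf3 in WT and for Ier2 in Ucp1-KO cells. No paired analysis was run. The genotypes share no replicate numbers, which does not show whether WT and Ucp1-KO cultures were prepared in parallel.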

Other observations

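Of 12 heat shock genes tested, 10 had a log2 fold change below 0, against 6208 of 12259 genes, with a median of -0.13. A single one had an unadjusted p under 0.05, against 5.54% of all transcripts tested. This was Hspa1b, an inducible HSP70 gene, with 1.67, 2.15 and 2.25 RPKM in WT and 1.34, 1.42 and 0.88 RPKM in Ucp1-KO cultures (limma adjusted p = 0.868). The abundant chaperone genes Hspd1 and Hspe1 overlapped between genotypes.

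All 6 proliferation markers had a log2 fold change above 0, the median was 0.40 and 0 had an unadjusted p under 0.05. Ucp1-KO replicate 13, in which 0 of the 9 AP-1 and immediate early genes exceeded their mean, had the highest summed level of these markers, 44.1 RPKM against 16.4 to 23.7 RPKM in the other 5 cultures. Mki67, a marker of cycling cells, had 8.38 RPKM there. The 9 brown adipocyte markers had a median of 0.14, with 8 above 0 and 0 at an unadjusted p under 0.05. Endothelial markers summed to 35.4 RPKM in WT replicate 11 and to 3.35 to 16.7 RPKM elsewhere. All 5 endothelial markers tested had a log2 fold change below 0, with a median of -0.41 and 0 at an unadjusted p under 0.05. The 8 macrophage markers tested overlapped between genotypes. Of 7 skeletal muscle markers 2 were tested, and Tnnt3 was between 0 and 0.12 RPKM in 4 cultures, 1.99 RPKM in Ucp1-KO replicate 13 and 1.34 RPKM in Ucp1-KO replicate 15.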
